A study of Homo sapiens with 8 samples.

Results

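ATF3 and 8 of its relatives in the ATF/CREB family of transcription factors were examined by RNA-seq in 2 established human melanoma cell lines, A2058 and C8161. The 9 genes, ATF3, JDP2, ATF1, ATF2, ATF7, CREB1, CREM, CREB5 and CREB3, were chosen by name, and each matched 1 of the 18478 Entrez gene identifiers in the deposited table. In each line, cells given ATF3 by retroviral transduction stood against cells with a neomycin control, and both arms were grown in the same serum-containing medium. The labels name neither the promoter of the introduced copy nor a clone. The series holds 8 libraries, 1 per arm of A2058 and 3 per arm of C8161. The table has 4 columns of RPKM, a count of reads scaled to transcript length and to library size. Each A2058 column is 1 library, whereas each C8161 column is the authors' combined value for the arm. No column therefore has a replicate spread, no test was possible, and every difference below describes these columns only.

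ATF/CREB factors are basic leucine zipper (bZIP) proteins. They bind DNA as pairs, through a basic region that contacts the cAMP response element or related sites, and the zipper decides which partners can pair. CREB1, ATF1 and CREM act downstream of cAMP and protein kinase A, and an internal promoter of CREM gives ICER, a short repressor form. ATF2, ATF7 and CREB5 form another branch, which responds to stress kinases and pairs with JUN. ATF3 and JDP2 form a branch of small proteins that often repress transcription, and ATF3 itself is induced by many kinds of stress. CREB3 belongs to the branch of factors that are held in the endoplasmic reticulum membrane until cleaved. In melanocytes the cAMP pathway acts through CREB to raise MITF, the lineage's main regulator.

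The basic region is what the members have in common, so the coding stretch of its bZIP signature is shown for all 9, from GENCODE 29 transcripts (GRCh38). Each run holds 27 bases, which are 9 codons, read 5′ to 3′ on the coding strand, and capitals mark bases that differ from ATF3 at the same place.
ATF3: aataagattgcagctgcaaagtgccga
JDP2: aaCaaAGtCgcagcAgcCCGAtgccgG
ATF2: aataGAGCAgcagctTcaaGAtgccga
ATF7: aaCCGgGCtgcagcCTcCCGCtgccgC
CREB5: aaCCGgGCAgcTgcCAcCCGCtgcAga
CREB1: aaCaGgGAAgcagctCGaGagtgTcgT
ATF1: aaCaGAGAAgcTgctCGaGaAtgTcgC
CREM: aaCaGgGAAgcTgcCAAaGaAtgTcga
CREB3: aataaAaGATcTgctCAaGagAgccgC

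The stretch of ATF3 lies at chr1:212618172-212618198 on the plus strand and that of JDP2 at chr14:75461468-75461494 on the plus strand. Each stretch was found by asparagine, alanine, cysteine or serine, and arginine at set places. The asparagine, alanine and arginine are therefore among the shared residues of every member by construction. JDP2 shared 17 of 27 bases with ATF3 but 7 of the 9 coded residues, the most of any relative. ATF2 (chr2:175093136-175093162, minus strand) shared 19 bases and 5 residues. ATF7 (chr12:53524639-53524665, minus strand) shared 15 bases and 5 residues, and CREB5 (chr7:28809313-28809339, plus strand) shared 13 bases and 5 residues. In CREB1 (chr2:207577651-207596935), ATF1 (chr12:50814435-50819656) and CREM (chr10:35207047-35211677), all on the plus strand, an intron interrupts the stretch, and each shared 5 residues with ATF3. CREB3 (chr9:35735151-35735177, plus strand) shared 4 residues, the fewest.

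Despite this likeness, few reads could fall on more than 1 member. Of all 50-base stretches in the longest transcript, 0% occurred in a transcript of another gene for ATF3, ATF1, ATF2, CREM, CREB5 and CREB3. The share was 0.447% for CREB1 and 0.934% for JDP2. For ATF7 it was 18.2%, mostly in the GENCODE gene AC023509.3, and its value is uncertain to that extent. The 3 members that overlap another gene of the table are CREB1 with METTL21A, CREM with CUL2 and CREB3 with GBA2. The strand setting of the counting is not given in the sources used here, so reads of such overlaps cannot be told apart.

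Facts of the whole table touch these values as follows. Low values of the A2058 columns tended, only in part, towards steps that place both libraries at about 17900000 reads. By this approximate estimate, 1 read adds about 0.0559 RPKM to a transcript of 1 kb. The read numbers and intervals given below for A2058 rest on it. No such steps were found for the combined C8161 columns, whose depth is unknown. The 10 melanocyte lineage markers checked, among them SOX10, PMEL and MITF, lay between 7.47 and 853 RPKM in the A2058 columns. In C8161 they lay between 0 and 3.6 RPKM, with 2 of the 10 at 0 in both arms, so the labelled melanoma origin of C8161 is not visible in these markers. Summed leukocyte markers were at 2.58 RPKM with ATF3 against 2 RPKM in A2058 and at 0.96 against 1.26 RPKM in C8161, with PTPRC, which codes for CD45, at or under 0.43 RPKM in each column. Summed fibroblast markers were at 13.4 against 12.1 RPKM in A2058 and 0.79 against 0.74 in C8161, and keratinocyte markers at 31.6 against 30.8 and 15.4 against 16.2, nearly all KRT10. In C8161 the summed endothelial markers were at 18.8 RPKM with ATF3 against 9.3 RPKM, nearly all of it CDH5, while the other 4 lay at or under 0.34 RPKM. The part of these markers in the results was not tested.

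ATF3 (Entrez gene 467; chr1:212565407-212620777) was at 4.71 RPKM in A2058 with introduced ATF3 and at 1.22 RPKM in its neomycin control. In C8161 it was at 62.57 RPKM with introduced ATF3 and at 4.76 RPKM in the control. Both arms given ATF3 were thus above their own control, by 3.86-fold in A2058 and 13.1-fold in C8161. A value per gene does not separate the introduced copy from the cell's own gene. Among all genes, ranked by level within a column, ATF3 stood at place 8885 with introduced ATF3 against 11467 in the control of A2058, and at place 1277 against 8059 in C8161. In A2058 the estimated depth gives about 65 reads against 17, if the median length of its protein-coding transcripts (769 bases) is taken. The exact 95% binomial interval of the fold, which covers counting error alone, was then 2.21 to 6.96. With the longest such transcript (2033 bases) it was 2.78 to 5.54.

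Differences between arms are given from here on as the log2 ratio, which is log2(RPKM + 1) in the ATF3 arm less its control value, for genes that reached 1 RPKM in either arm. The added 1 RPKM makes differences of low genes look smaller. On this scale ATF3 was at 3.46 in C8161, the highest of 10941 genes compared, and at 1.36 in A2058, the fourth highest of 11883.

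**Figure D1:**
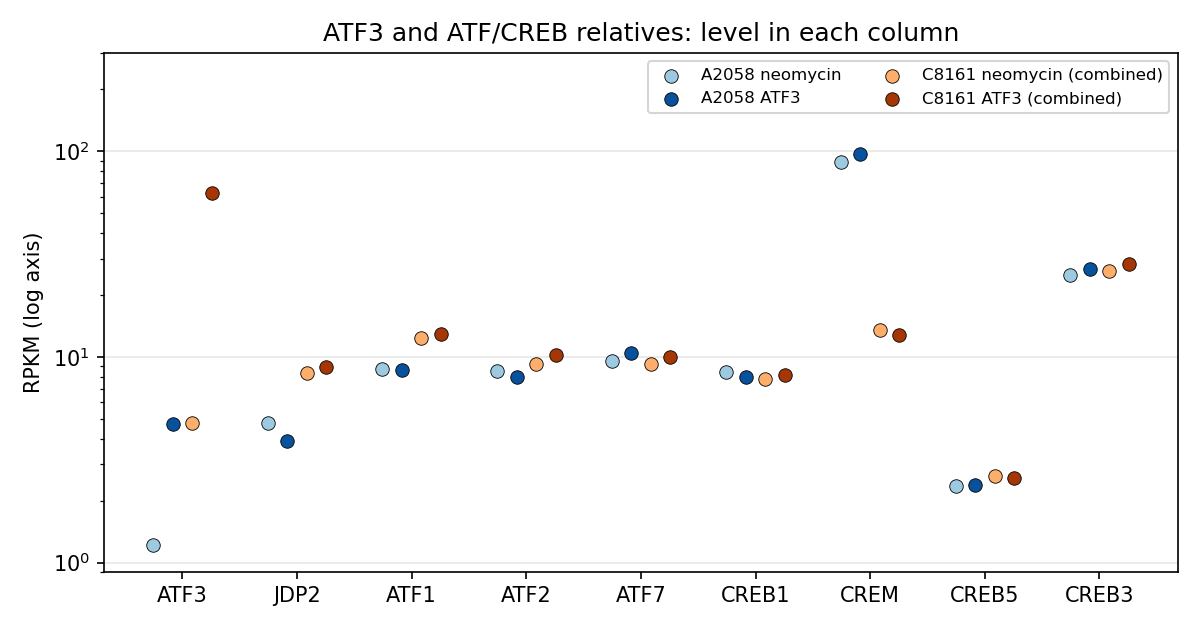
RPKM of ATF3 and its 8 relatives on a log axis, 1 point per deposited column: A2058 neomycin, A2058 with ATF3, and the combined C8161 neomycin and C8161 ATF3 values. ATF3 runs from 1.22 to 62.57 RPKM, CREM separates the lines, and the arms of a line lie close together for the other members.

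JDP2 (chr14:75426943-75474107), the nearest relative of ATF3 and a repressor that binds the same sites, was at 3.91 RPKM in A2058 with ATF3 and at 4.79 RPKM in the control. In C8161 it was at 8.92 RPKM with ATF3 and at 8.33 RPKM in the control. It was therefore lower with ATF3 in A2058, with a log2 ratio of −0.24, and slightly higher in C8161, at 0.09. The A2058 ratio was the largest in size among the 8 relatives in either line. In A2058, 2.22% of all genes compared had a lower ratio than JDP2. At the estimated depth JDP2 had about 119 reads against 146 over the median transcript length (1700 bases), and the interval of its fold, 0.634 to 1.05, included 1. Over its longest transcript (5401 bases) the interval was 0.711 to 0.937. Whether the interval included 1 thus depended on the length assumed, and the table does not show which JDP2 transcripts were made.

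The cAMP-responsive branch holds CREB1, ATF1 and CREM. CREB1 (chr2:207529962-207605988), the founding activator of the branch, was at 7.95 RPKM in A2058 with ATF3, 8.45 in its control, 8.16 in C8161 with ATF3 and 7.78 in that control. All 4 values lay close together. ATF1 (chr12:50763459-50821162), which pairs with CREB1, was at 8.67 and 8.68 RPKM in A2058 with ATF3 and control, and at 12.91 and 12.35 RPKM in C8161. The arms of each line differed little, and both C8161 values lay above both A2058 values. CREM (chr10:35126846-35212958), which codes for activators and for the repressor ICER, was at 96.52 RPKM in A2058 with ATF3, 88.73 in its control, 12.83 in C8161 with ATF3 and 13.51 in that control. Its log2 ratio with ATF3 was 0.12 in A2058 and −0.07 in C8161, small beside the gap between lines. The RPKM per gene does not say which CREM forms were made.

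The stress-kinase branch holds ATF2, ATF7 and CREB5. ATF2 (chr2:175072259-175168203), a JUN partner that is activated by JNK and p38 kinases, was at 8.01 RPKM in A2058 with ATF3 and 8.58 in the control. In C8161 it was at 10.25 RPKM with ATF3 and 9.19 in the control. Its log2 ratio of 0.14 was the highest of the relatives in C8161, while that in A2058 was −0.09. ATF7 (chr12:53507856-53626382), its close paralog, was at 10.38 and 9.58 RPKM in A2058 with ATF3 and control and at 10.02 and 9.21 RPKM in C8161. It was higher with ATF3 in both lines, by log2 ratios of 0.11 and 0.11. CREB5 (chr7:28299321-28825894) was the lowest relative in each column, at 2.39 and 2.35 RPKM in A2058 with ATF3 and control and at 2.58 and 2.63 RPKM in C8161.

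CREB3 (chr9:35732666-35736999), the membrane-held member, was at 26.82 RPKM in A2058 with ATF3, 24.88 in its control, 28.33 in C8161 with ATF3 and 26.06 in that control. It was slightly higher with ATF3 in both lines, with log2 ratios of 0.10 in A2058 and 0.12 in C8161. It stood among the top 2 members in each column.

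Members were counted against a log2 ratio of at least 0.25 in size, a fold of about 1.19 in RPKM + 1. In C8161, 1 of 9 members, ATF3, was higher by this measure, where 2.58% of all genes compared were higher. None was lower, where 3.2% of all genes were lower. In A2058, again ATF3 alone was higher, against 2.34% of all genes, and none was lower, against 1.85%. At a log2 ratio of at least 1, ATF3 was the 1 member higher in each line, against 0.0274% of all genes in C8161 and 0.0505% in A2058. ATF3 is the introduced gene and is itself among the 3 genes behind that share in C8161 and the 6 in A2058. Its place in these counts is therefore no result about the family. Of the 8 relatives, 0 passed 0.25 in either line, where 5.78% of genes in C8161 and 4.19% in A2058 passed it in either direction. Among 8 genes, backgrounds of that size leave little to read from a count of 0.

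The median log2 ratio of the 8 relatives was 0.07 in C8161, beside 0.01 over all genes compared, and 0.01 in A2058, beside 0.00. In C8161, 6 relatives lay above 0 and 2 below, where 52.0% of all genes lay above 0. In A2058, 4 lay above and 4 below. The C8161 ratios also varied with base composition and length: across 10861 genes, which are not replicates, Spearman's rho was −0.42 for GC content and 0.20 for transcript length. The transcripts of ATF1 (34.2% GC), CREB1 (36.0%) and ATF2 (36.9%) are among the poorest in GC, and 0.755%, 3.15% and 4.85% of genes compared lie below them. With both trends removed together, their C8161 log2 ratios went from 0.06 to 0.01 for ATF1, from 0.06 to 0.00 for CREB1 and from 0.14 to 0.09 for ATF2. That of CREB3, whose transcript has 56.6% GC, went from 0.12 to 0.17. CREB5 went from −0.02 to −0.07 and CREM from −0.07 to −0.10. The median of the 8 relatives in C8161 was then 0.05. In A2058, across 11758 genes, rho was 0.09 for GC content and −0.23 for transcript length, opposite in sign to C8161 for both. With the trends removed in A2058, CREB1 went from −0.08 to −0.04, CREB5 from 0.02 to 0.06 and CREB3 from 0.10 to 0.08. The median of the relatives there was then 0.03.

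**Figure D2:**
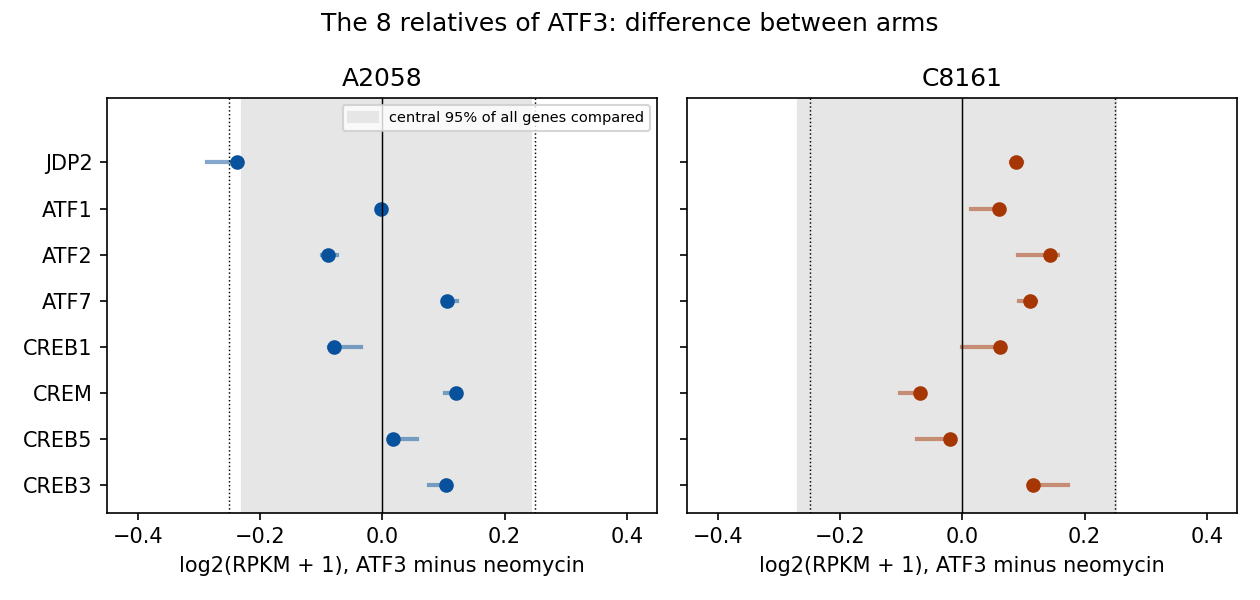
Log2 ratio between arms for the 8 relatives in A2058 (left) and C8161 (right), as points, with bars from the lowest to the highest value over the other settings; grey marks the central 95% of all genes compared and dotted lines mark 0.25 in size. JDP2 in A2058 lies at −0.24, outside the grey range, and the other 15 points lie inside it.

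RPKM is scaled to length, so levels of different members may be set side by side within a column. The lengths used by the authors are unknown, so the order, shares and ratios between members given below are approximate. In the A2058 control the order ran CREM, CREB3, ATF7, ATF1, ATF2, CREB1, JDP2, CREB5 and ATF3, with ATF3 last. With introduced ATF3 the order in A2058 was the same except that ATF3 stood seventh, between CREB1 and JDP2. In the C8161 control ATF3 was eighth of 9, above CREB5, and with introduced ATF3 it was first. Without a spread, no order can be given for close neighbours such as ATF1, ATF2 and CREB1 in A2058 (8.45 to 8.68 RPKM in the control) or ATF7 and ATF2 in the C8161 control (9.21 and 9.19 RPKM).

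The summed level of the 9 members was 157 RPKM in the A2058 control and 169 RPKM with ATF3. It was 93.8 RPKM in the C8161 control and 157 RPKM with ATF3. ATF3 made up 0.776% of this sum in the A2058 control, 2.78% in A2058 with ATF3, 5.07% in the C8161 control and 40.0% in C8161 with ATF3. The 8 relatives together were at 94.0 RPKM in C8161 with ATF3 and 89.1 RPKM in its control, so nearly all of the gap between these 2 sums was ATF3. Against its closest relative, the level of JDP2 was 3.93 times that of ATF3 in the A2058 control, whereas ATF3 was at 1.20 times JDP2 in A2058 with ATF3. In C8161, JDP2 was at 1.75 times ATF3 in the control, and ATF3 was at 7.01 times JDP2 with ATF3. The pair thus stood in opposite order in the 2 arms of C8161. In A2058 with ATF3 the levels, 4.71 and 3.91 RPKM, are close, and without a spread no order can be given for them.

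**Figure D3:**
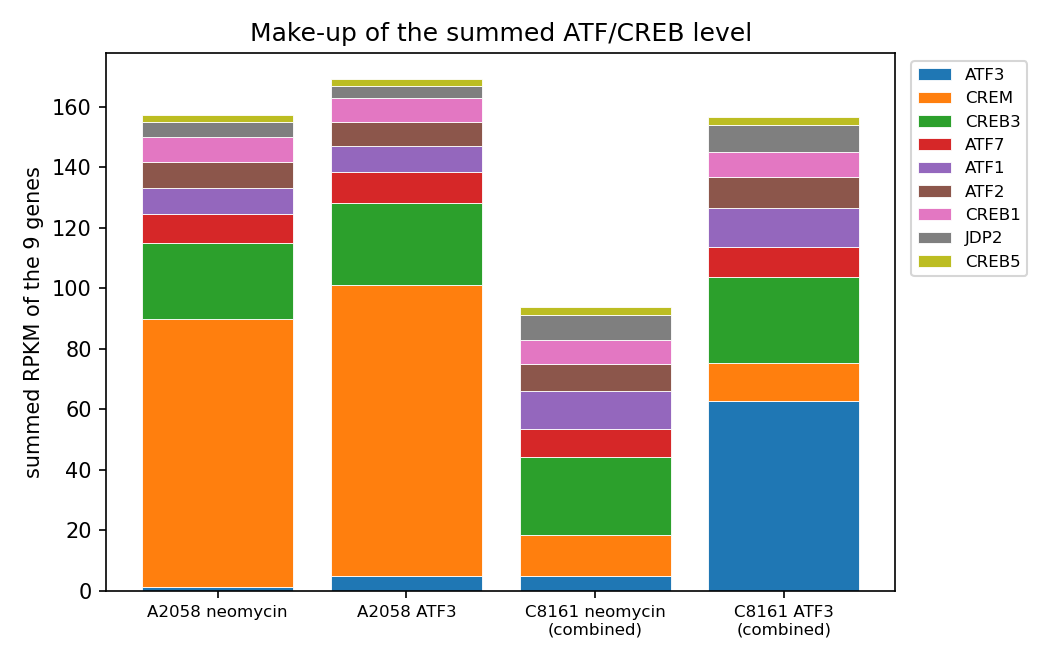
Summed RPKM of the 9 members in each column, stacked by gene. CREM fills 56.4% and 57.0% of the A2058 bars, and ATF3 fills 40.0% of the bar of C8161 with ATF3 against 5.07% of its control.

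The lines differed in the family before any ATF3 was introduced. Between the control columns, CREM was 6.57-fold higher in A2058, with a log2 ratio (C8161 minus A2058) of −2.63, and 503rd lowest of 12372 genes compared. In the columns with ATF3, which are other libraries, it was 7.52-fold higher in A2058. ATF3 was 3.90-fold higher in the C8161 control, with a log2 ratio of 1.38. JDP2 was 1.74-fold and ATF1 1.42-fold higher in the C8161 control, and in the columns with ATF3 these folds were 2.28 and 1.49. The other 5 members lay within a log2 ratio of 0.12 of 0 between the controls as deposited, but these small values depended on the scaling. The median over all genes compared was −0.19, and with it set to 0 CREB5 was at 0.30, ATF2 at 0.27, CREB3 at 0.25, ATF7 at 0.13, CREB1 at 0.08 and JDP2 at 0.87. After quantile normalization CREB5 was at 0.58, ATF2 at 0.34, CREB3 at 0.20, ATF7 at 0.19, CREB1 at 0.16 and JDP2 at 0.99, so ATF7 and CREB1 turned from slightly lower to slightly higher in C8161 under both scalings. CREM (−2.71 to −2.44) and ATF3 (1.38 to 1.88) stayed past 1 in size under each setting in which they were compared. At a log2 ratio of at least 1, 1 of 9 members was lower in C8161, against 20.7% of all genes, and 1 was higher, against 9.36%. Against these backgrounds the counts show nothing particular to the family. The control columns also enter the differences between arms, so neither set of values supports the other.

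RefSeq (GRCh38.p14) lists 7 promoter windows for CREM, the most of the 9 members, each running from 250 bases before to 50 bases after a start. Windows were searched on both strands for TGACGTCA, the full cAMP response element, for its core TGACG, which the full element contains, and for the AP-1 site TGACTCA. The full element was present in 1.85% of all 35116 windows, the core in 24.6% and the AP-1 site in 4.95%. For CREM, 2 overlapping windows at the internal start sites held the full element, and both contain the same copy, at chr10:35195852-35195859. No window of another member held it. The later of these windows and the upstream window with cores are shown because CREM is the member whose level separates the lines. Capitals mark the full element in the first sequence and cores alone in the other.
CREM internal window, chr10:35195652-35195951, plus strand: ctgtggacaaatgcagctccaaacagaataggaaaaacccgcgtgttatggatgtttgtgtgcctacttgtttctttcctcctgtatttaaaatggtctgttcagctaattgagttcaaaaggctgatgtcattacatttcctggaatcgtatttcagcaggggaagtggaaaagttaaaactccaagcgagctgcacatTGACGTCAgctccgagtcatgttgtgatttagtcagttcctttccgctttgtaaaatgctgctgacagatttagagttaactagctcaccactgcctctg
CREM upstream window, chr10:35126977-35127276, plus strand: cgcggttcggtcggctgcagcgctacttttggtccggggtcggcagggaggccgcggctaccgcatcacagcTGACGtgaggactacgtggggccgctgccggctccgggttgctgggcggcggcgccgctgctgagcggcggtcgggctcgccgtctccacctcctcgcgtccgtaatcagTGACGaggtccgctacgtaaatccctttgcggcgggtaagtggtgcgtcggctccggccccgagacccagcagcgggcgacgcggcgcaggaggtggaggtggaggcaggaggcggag

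In the internal window the element begins 50 bases before the start site. The 2 cores of the upstream window begin 178 and 68 bases before its start. Cores were also found in 1 of 3 windows of JDP2, 97 bases before the start, in 1 of 3 windows of ATF7 and in the single window of CREB3. The AP-1 site was found in 1 of 3 windows of CREB5, 44 bases before the start. The 2 windows listed for ATF3, the 3 for ATF1 and the single one for CREB1 held none of these letters, and none was listed for ATF2. The ATF3 windows were chr1:212565157-212565456 and chr1:212614768-212615067, and the bases between them were not searched. An ATF3 start site outside these windows was therefore not covered, and the absence of a match holds for these windows only. A match is a run of letters, not a measured site, and the table does not say which start sites were used.

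Levels of a list of 25 genes known to answer to cAMP and CREB were set beside CREM in the control columns. Of 22 compared, 12 were lower in C8161 by a log2 ratio of at least 1 and 4 were higher (BDNF, GEM, CCND1 and DUSP1), where 20.7% of all genes were lower and 9.36% higher, with a median of −1.25 beside −0.19 over all genes compared. Of the genes named by a fixed rule, JUNB, an AP-1 subunit, was at 49.97 RPKM in A2058 and 18.03 in C8161, and BCL2, which blocks apoptosis, was at 2.71 and 2.11 RPKM. BDNF, a neurotrophin, was at 1.86 and 10.04 RPKM, and GEM, a small GTPase, at 3.96 and 31.33 RPKM. Others were named after their values were seen. The cAMP phosphodiesterase PDE4B was at 18.99 RPKM in A2058 and 0.16 in C8161, and the nuclear receptor NR4A1 at 29 and 3.96 RPKM. The clock gene PER1 was at 12.52 and 0.84 RPKM. MITF, which is also one of the lineage markers above, was at 54.02 and 0.95 RPKM. In the other direction, CCND1 was at 22.69 RPKM in A2058 and 151.13 in C8161, and DUSP1 at 9.23 and 51.41 RPKM. More of the list was thus higher in A2058, as CREM was, with exceptions in the other direction. These 2 cultures differ in lineage markers too, and the part of cAMP signalling was not tested.

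**Figure D4:**
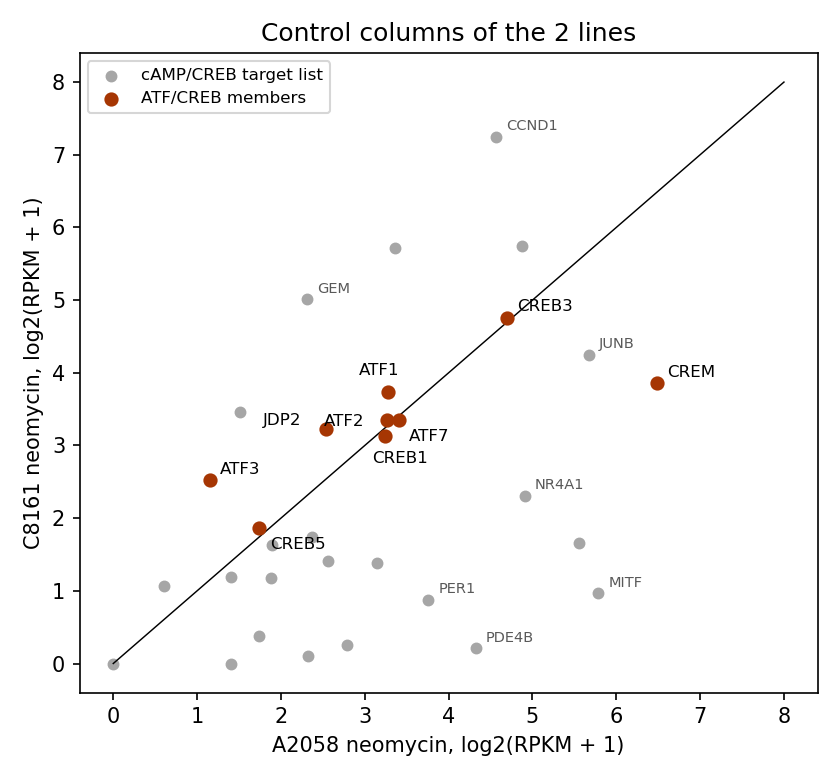
Level of each member and of the cAMP/CREB target list in the 2 neomycin control columns, as log2(RPKM + 1), with the line of equal level. CREM (88.73 RPKM in A2058, 13.51 in C8161) lies well below the line with 12 of the list's genes, ATF3 lies above it, and most relatives lie near it.

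Between arms, 0 of 16 genes of the same list passed a log2 ratio of 0.25 in C8161, beside 5.78% of all genes, and the median was 0.01. In A2058, 2 of 21 were higher, beside 2.34% of all genes, and 1 was lower, beside 1.85%, with a median of −0.02. For a list of this size such counts cannot be told from the shares over all genes, and the same holds for the single genes past 0.25 in the other lists. The higher ones were GEM (4.91 RPKM with ATF3 against 3.96) and, named after its value was seen, RGS2, a regulator of G protein signalling (5.44 against 4.16). The lower one, also named afterwards, was the kinase SIK1 (0.99 against 1.65 RPKM).

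Among 10 further ATF/CREB factors, 8 were compared in C8161, with a median log2 ratio of 0.12. The 1 gene past 0.25 was ATF5, a stress-responsive factor (23.67 RPKM with ATF3 against 19.63). ATF6, a membrane-held sensor of protein folding stress, was at 29.17 against 24.63 RPKM, CREB3L4, a relative of CREB3, at 4.25 against 4.68 and CREBZF at 8.17 against 8.19. In A2058 the median was −0.06 and none of 8 passed 0.25, where 4.19% of all genes passed it. Of the 8 compared in C8161, 6 lay above 0 and 2 below, where 52.0% of all genes lay above 0.

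The 5 CREB coactivators all lay above 0 in C8161, where 52.0% of all genes did, with a median of 0.12. CRTC2, which moves to the nucleus when cAMP rises, was the 1 past 0.25, at 21.20 RPKM with ATF3 against 16.82. The acetyltransferase EP300 was at 11.27 against 9.67 RPKM, its paralog CREBBP at 7.59 against 7.40 and CRTC1 at 3.04 against 2.90. In A2058, 4 of the 5 lay below 0, where 51.3% of all genes lay above 0, with a median of −0.07. CRTC2 there was at 29.08 against 29.33 RPKM. For 5 genes such counts leave little to read, and the GC and length trends were not removed for the lists. Of 20 kinases and kinase subunits that act on these factors, 18 were compared in C8161, with a median of 0.02 and 1 lower past 0.25. That was PRKAR1B, a regulatory subunit of protein kinase A, at 6.27 against 7.72 RPKM. PRKACA, a catalytic subunit, was at 47.66 against 40.24 RPKM, PRKAR1A at 53.13 against 45.74 and the p38 kinase MAPK11 at 6.54 against 7.87. In A2058 the median was −0.06 over 19, and 2 were lower past 0.25, beside 1.85% of all genes. Both were named after their values were seen: SIK1, given above, and PRKAR2A (17.55 against 21.80 RPKM).

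Of 23 bZIP proteins of other families, with which ATF/CREB factors can pair, 18 were compared in C8161, with a median of 0.09. CEBPB was at 26.90 RPKM with ATF3 against 31.88, JUNB at 15.54 against 18.03, DDIT3 (CHOP) at 53.30 against 45.58 and FOSL1 at 560 against 489. None of these passed 0.25. The 1 gene that did, FOSB, was named after its value was seen, at 2.13 against 1.61 RPKM. In A2058, 19 were compared, with a median of 0.08, and BATF, also named afterwards, was the 1 past 0.25 (1.78 against 1.12 RPKM). JUN, a partner of ATF3 and ATF2, was at 108.79 RPKM with ATF3 against 120.69 in C8161 and at 3.34 against 3.10 RPKM in A2058. The 10 regulators of ATF3 transcription had 0 members past 0.25 in either line, beside 5.78% of all genes in C8161 and 4.19% in A2058. For 10 genes such a count of 0 leaves little to read. In C8161 ATF4, which induces ATF3 under stress, was at 225.75 against 201.83 RPKM, HIF1A at 40.33 against 37.79 and MYC at 100.31 against 107.25.

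Of 25 genes reported as ATF3 targets, 20 were compared in C8161, with a median of 0.03. Past 0.25, 2 were higher and 2 lower, beside 2.58% and 3.2% of all genes. Like the other lists, this one was chosen with earlier results of these data known. Its counts are therefore a description only, and whether the list differs from all genes was not tested. MMP2, a matrix protease, was at 31.24 RPKM with ATF3 against 23.70 and the cytokine IL6 at 3.82 against 2.66. ID1, an inhibitor of differentiation, was at 51.88 against 70.86 RPKM and SNAI2, a repressor of E-cadherin, at 15.95 against 20.97. In A2058, 0 of 20 passed, beside 4.19% of all genes, and the median was 0.01. ID1 there was at 61.95 RPKM with ATF3 against 59.35.

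Genes with the full cAMP response element in a promoter window, the site type the family binds, were compared with genes whose windows lack it. In C8161 the median log2 ratio was 0.01 over 350 genes with it and 0.01 over 8664 without, and 1.71% against 2.32% were higher past 0.25. The share lower past 0.25 was 3.43% with the element and 3.05% without. In A2058 the medians were 0.01 over 378 genes and 0.00 over 9367. For the AP-1 site the C8161 medians were 0.01 over 437 genes and 0.01 over 8577. There, 3.20% against 2.25% were higher past 0.25 and 3.89% against 3.02% were lower. In A2058 the medians were 0.02 over 464 genes and 0.00 over 9281, with 4.31% against 2.15% higher and 1.08% against 1.67% lower. The medians with and without these letters thus lay close together in both lines. With the AP-1 site the share of higher genes was larger in both lines, and in C8161 the share of lower genes was larger too. These shares were not tested.

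The genes most like ATF3 over the 4 columns were sought by the distance between log2(RPKM + 1) profiles centred on their own mean, among 12419 genes. The nearest 3 were STC1, a secreted hormone, at 2.21, IFI44, an interferon-induced gene, at 2.26 and EDN1, which codes for endothelin 1, at 2.33. EDN1 was at 2.60 RPKM in C8161 with ATF3 and 1.11 in the control, and at 0.12 RPKM in A2058 with ATF3 and listed at 0 in that control. For JDP2 the nearest were STX8, at 0.0315, SLMAP, at 0.0397, and PTPN21, at 0.0559. STX8, a syntaxin, was at 8.83 and 10.69 RPKM in A2058 with ATF3 and control and at 19.03 and 18.24 RPKM in C8161. The distances for ATF3 were far larger than those for JDP2, so its 3 genes were the nearest without being close. Their C8161 log2 ratios were 0.62 for STC1, 0.53 for IFI44 and 0.77 for EDN1, beside 3.46 for ATF3. With a pseudocount of 0.1 RPKM, 2 of the 3 for ATF3 and all 3 for JDP2 were kept. With 4 columns, such likeness is a description of these values.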

How the data were processed

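RNA-seq was deposited as 1 table of RPKM values (18478 Entrez genes, 2 decimals) made by the authors, per the file headers. Per the submitters' processing notes, Bowtie2, RSEM and hg38 were used (no version is listed); the annotation, filters, strand setting and the way 3 C8161 libraries became 1 column were not given in the sources used here. Log2 ratios used log2(RPKM + 1). The members and lists were chosen with earlier results of these data known. Planned fits needing values per library could not be run. Symbols came from RefSeq (18156 identifiers matched), promoter windows from RefSeq, and length, GC and shared sequence from GENCODE 29 (17850 genes). Depth in A2058 was estimated from steps of values under 0.3 RPKM in genes with 1 protein-coding transcript of 300 to 1500 bases (229 and 234 genes), with a coherence of 0.357 and 0.371 at 17900000 reads and at most 0.249 and 0.193 elsewhere; the authors' lengths are unknown, so it is approximate. Named genes were the 9 members, of each of 7 lists the 2 highest and 2 lowest C8161 ratios at a mean of at least 2 RPKM, and the 3 nearest profiles to ATF3 and JDP2. Ratios were tested on simulated data. Alternatives were another pseudocount, other minimum levels, quantile and median scaling, and removal of GC and length trends. Python 3.11.15, numpy 2.4.6, pandas 2.3.3 and scipy 1.17.1 were used.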

Additional observations from a re-analysis of the deposited data

Results flagged for a closer look

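For 6 relatives the difference between arms had opposite signs in the 2 lines. Over all genes compared, 51.3% in A2058 and 52.0% in C8161 lay above 0, so opposite signs are common. The share of all genes with opposite signs was not counted, and the count of 6 is therefore no result about the family. The trends with GC content and transcript length also had opposite signs in the 2 lines. Some ratios lay near 0: ATF1 was at −0.001 in A2058, and CREB5 at 0.02 in A2058 and −0.02 in C8161. The gap between lines, the log2 ratio in C8161 minus that in A2058, was 0.33 for JDP2, 0.23 for ATF2, 0.14 for CREB1, 0.061 for ATF1, −0.037 for CREB5 and −0.19 for CREM. With 1 value per arm these differences between lines were not tested. The signs of ATF1 in A2058 and of CREB1 in C8161 were not the same under every setting tried. ATF1 ran from −0.005 to 0.003 and CREB1 from −0.001 to 0.07. With GC and length trends removed, CREB1 lay below 0 in both lines, at −0.04 in A2058 and −0.001 in C8161.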

How the results depend on the processing

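The log2 ratio of ATF3 ran from 3.32 to 3.69 in C8161 and from 1.34 to 1.87 in A2058 over the settings tried. JDP2 in A2058, at −0.24, passed 0.25 with a pseudocount of 0.1 RPKM (−0.29) and after quantile normalization (−0.26), so the number of members lower past 0.25 in A2058 was 1 in both of these settings instead of 0. With a minimum of 5 RPKM the number higher in A2058 was 0, because ATF3 itself is under that level there. Of all genes compared, 14.8% in A2058 and 23.2% in C8161 passed a threshold of 0.15, and 0.539% and 0.274% one of 0.5. No paired analysis was possible because the C8161 columns are combined over the replicates, and leaving out a replicate was not run for the same reason. Depth limits the low members most in A2058, where ATF3 in the control rests on few reads.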
